A study of Mus musculus with 5 samples.

Results

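Mib1, the genes of the Notch ligands and receptors that signal through the same step, and a Notch target gene were examined in RNA-seq of mouse tibialis anterior (TA), a fast-twitch muscle of the lower leg. The 10 genes were chosen by name: the ubiquitin ligases Mib1 and Mib2, the ligands Dll1, Dll4, Jag1 and Jag2, the receptors Notch1, Notch2 and Notch3, and the target Hey1. They are 10 of 17015 genes in the table. All 10 were among the 12148 genes that were tested, those averaging 0.5 or more FPKM (fragments scaled to transcript length and to a size of the library). The choice was made with the comparison below already known, Mib1 having been picked for its difference in it, so the values of these 10 genes are given as a description, with no p-value for any of them. Counts over them stand beside the share of all genes, and nothing is read from those counts.

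The libraries came from TA of 8-week-old sedentary male mice. Their background was that of Nrip1 fl/fl mice (C57BL/6J) bred with Cre mice given as C57BL/6JN. The 3 WT control libraries are labelled Ctrl, and the 2 libraries labelled Nrip1KO come from skmNrip1-/- mice, in which a myogenin-Cre driver, active in differentiating skeletal muscle, recombines an Nrip1 fl/fl allele. Nrip1 encodes RIP140, a nuclear receptor corepressor, and the loxP sites of that allele flank exon 4, which carries its whole coding sequence. Cells of the muscle that never express the driver are not targeted in this model. Controls of this cross are described as littermates without Cre, so effects of Cre and of Nrip1 loss cannot be told apart. The sample labels do not state that each library is a separate animal, so the errors and p-values measure the spread between these libraries.

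Notch receptors are activated by ligands on a neighbouring cell. The E3 ubiquitin ligases Mib1 and Mib2 ubiquitinate Delta and Jagged ligands, and the endocytosis that follows pulls on the bound receptor and exposes it to cleavage by ADAM proteases and then gamma-secretase. The freed intracellular domain joins RBPJ and Mastermind proteins on DNA and induces genes of the Hes and Hey families. In skeletal muscle this pathway is best known for keeping satellite cells, the muscle stem cells, quiescent, and in vessels for endothelial and mural cell identity.

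Nrip1 itself, the deleted gene, had a higher and not a lower gene-level value in the libraries labelled skmNrip1-/-. It read 4.64, 7.69 and 6.55 FPKM in the WT control libraries and 25.3 and 22.5 FPKM in the libraries labelled skmNrip1-/-, a log2 difference of 1.94 ± 0.21 (SE; adjusted p = 0.0261, limma). The table gives 1 value per gene, so exon 4 could not be read apart from the rest of the transcript. Every direction below therefore rests on the labels as deposited, and the group is named as the libraries labelled skmNrip1-/-. The depth of each library is not given. Steps in the low values reflect the factor by which a library was scaled, which need not equal its depth. They placed that factor between 0.806 and 1.10 of that of WT control replicate 1, lowest in labelled skmNrip1-/- replicate 1.

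Mib1 was about 4.7 times as abundant in the libraries labelled skmNrip1-/- as in WT control. None of the other 9 genes was higher in both of these libraries than in every control. Of all genes tested, 15.8% were higher in both, so nothing is read from that absence. Mib1 (ENSMUSG00000024294) read 11.8, 9.94 and 8.54 FPKM in WT control and 41.5 and 53.8 FPKM in the libraries labelled skmNrip1-/-. The lowest of the latter was 3.51 times the highest control, so the groups were well apart. The means were 10.1 ± 1.66 FPKM (SD, n = 3) and 47.7 ± 8.69 FPKM (SD, n = 2). On the log2(FPKM + 0.1) scale the difference was 2.23 ± 0.18 (SE), with a 95% interval of 1.80 to 2.65, which is a fold change of 4.68 (3.49 to 6.29). Among the 12148 genes, 27 had a higher log2 difference. For scale, 55 genes, or 0.453% of those tested, were called, meaning that they reached an adjusted p of 0.05 in limma together with a 1.2-fold change or more. They split into 45 higher and 10 lower in the libraries labelled skmNrip1-/-, or 29 and 59 with the values scaled to TPM. Since Mib1 was selected for this difference, nothing is read from its place among them.

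**Figure D1:**
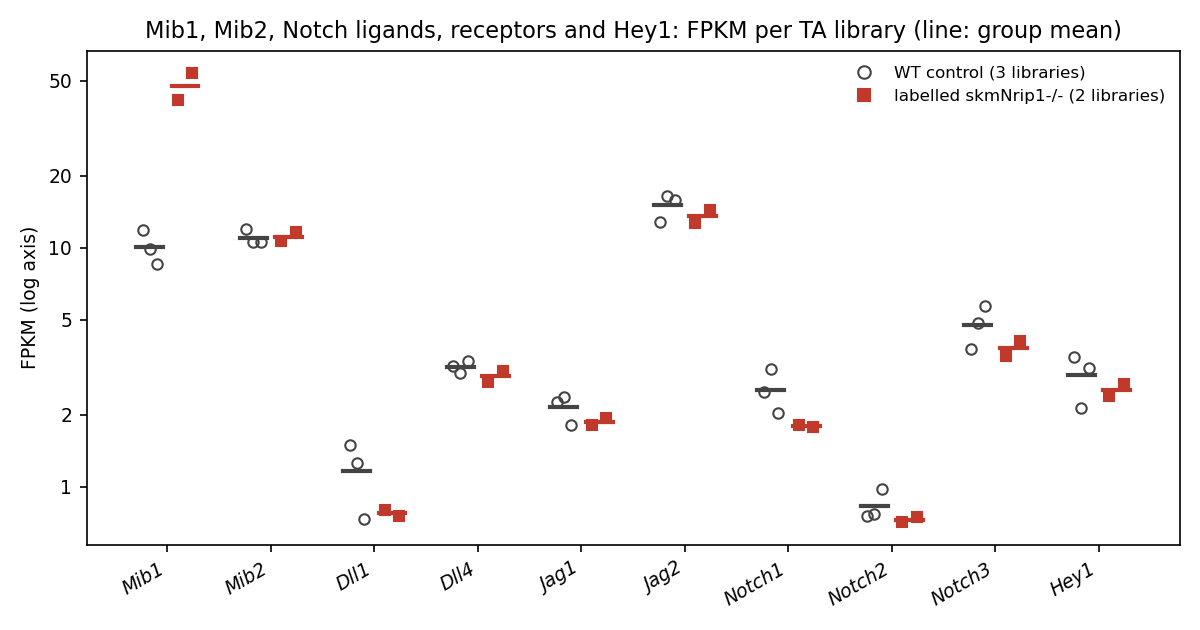
FPKM of each of the 10 genes in each TA library, on a log axis, with open circles for the 3 WT control libraries, squares for the 2 libraries labelled skmNrip1-/- and a line at each group mean. Mib1 stands at 8.54 to 11.8 FPKM in WT control and 41.5 to 53.8 FPKM in the other group. Of the other 9 genes, Notch1 and Notch2 have both squares below every circle, and in the rest the groups overlap.

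Mib2, the second ligase, did not share this difference. It read 12.0, 10.6 and 10.5 FPKM in WT control and 10.6 and 11.6 FPKM in the libraries labelled skmNrip1-/-, with overlapping groups. The difference was 0.02 ± 0.12 (SE) on the log2 scale, and its 95% interval of -0.26 to 0.29 spans a fold change of 0.834 to 1.22. Scaled to TPM the Mib2 difference turned to -0.28, where the median of all genes was -0.29. In WT control, Mib1 and Mib2 were at like levels per transcript length, 10.1 ± 1.66 and 11.0 ± 0.816 FPKM, whereas in the libraries labelled skmNrip1-/- Mib1 was at 47.7 ± 8.69 and Mib2 at 11.1 ± 0.704 FPKM.

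Of the ligands that these ligases act on, none was higher in both libraries labelled skmNrip1-/- than in every control. The share of all genes tested was 15.8%, so nothing is read from this. Jag2 was the most abundant at 12.9, 16.5 and 15.9 FPKM in WT control and 12.7 and 14.3 FPKM in the libraries labelled skmNrip1-/- (log2 difference -0.15 ± 0.14, SE). Dll4, a ligand best known from endothelial tip cells, read 3.19, 2.99 and 3.36 FPKM against 2.74 and 3.06 FPKM (-0.13 ± 0.13). Jag1 read 2.27, 2.37 and 1.81 FPKM against 1.81 and 1.94 FPKM (-0.18 ± 0.17). In all of these the groups overlapped.

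Dll1 is a ligand expressed by myogenic cells. Its 1.50, 1.26 and 0.733 FPKM in WT control compare with 0.799 and 0.754 FPKM in the libraries labelled skmNrip1-/-, a difference of -0.48 ± 0.31 (SE) with an interval of -1.23 to 0.27. WT control replicate 3 was below both of those libraries, and without it the estimate was -0.76 with an interval of -1.33 to -0.18, which does not include 0. Without WT control replicate 1 it was -0.28.

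The receptors had lower mean values in the libraries labelled skmNrip1-/-. For Notch1 and Notch3, whether the 95% interval included 0 depended on the libraries and scaling used. That of Notch2 included 0 in every setting in which it was tested. Scaled to TPM, the median of all genes was itself at -0.29. From that median Notch1 differed by -0.45 and Notch3 by -0.31. Notch1 read 2.50, 3.11 and 2.04 FPKM in WT control and 1.81 and 1.79 FPKM in the other group. Both of the latter lay below every control, and the difference was -0.46 ± 0.20 (SE), a fold change of 0.728 (0.523 to 1.01). Without WT control replicate 3 it was -0.60 with an interval of -1.06 to -0.14. Notch2 read 0.758, 0.767 and 0.981 FPKM against 0.710 and 0.749 FPKM, also without overlap, but the gap to the lowest control was small beside the spread within WT control. Its difference was -0.16 ± 0.23, with an interval of -0.71 to 0.39, and -0.06 without WT control replicate 3.

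Notch3, the receptor of mural cells, read 3.78, 4.83 and 5.72 FPKM against 3.52 and 4.08 FPKM, with overlap (-0.31 ± 0.19; 95% interval -0.77 to 0.15). It was -0.46 without WT control replicate 1, with an interval of -0.84 to -0.08, and -0.17 without WT control replicate 3. Across all genes tested, both libraries labelled skmNrip1-/- lay below every control in 14.4% and above every control in 15.8%. Of the 9 genes other than Mib1, 2 lay below every control, 0 above, and 7 overlapped; the 9 genes were picked with this contrast in view, so nothing is read from that count.

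Hey1, which encodes a transcriptional repressor induced by Notch signaling, read 3.50, 2.14 and 3.15 FPKM in WT control and 2.39 and 2.70 FPKM in the libraries labelled skmNrip1-/-. Both of these lay inside the control range, and the difference was -0.17 ± 0.23 (SE; 95% interval -0.71 to 0.37). It was -0.03 without WT control replicate 1 and -0.37 without WT control replicate 2.

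For the 9 genes together, 0 were called in limma, against 0.453% of all genes tested. An unadjusted p under 0.05 was reached by 0 of them, against 11.9% of all genes tested. The estimates ran from -0.48 to 0.02, with a median of -0.17 against -0.00054 for all genes tested, and 8 of 9 were below 0. All 9 intervals of this fit included 0. With the values scaled to TPM, where the median of all genes was -0.29, 6 of 9 lay wholly below 0. With 1 library left out, that held for Dll1 and Notch1 without WT control replicate 3 and for Notch3 without WT control replicate 1, and for 0 of 9 without any of the other 3 libraries. The highest upper bound was a fold change of 1.31 (Notch2) and the lowest lower bound 0.427 (Dll1), so a change of the size seen for Mib1 lay outside all 9 intervals of this fit, while smaller changes could not be resolved with 5 libraries.

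**Figure D2:**
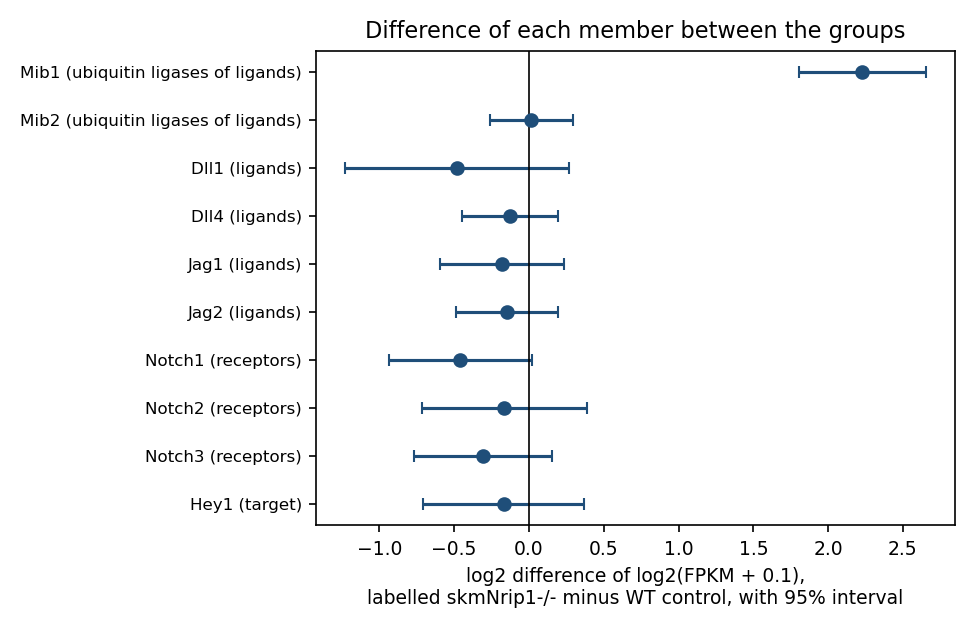
Log2 difference of FPKM + 0.1, libraries labelled skmNrip1-/- minus WT control, with 95% intervals from the fit across all genes, for the 10 genes. Mib1 is at 2.23 (1.80 to 2.65), and the other 9 lie between -0.48 and 0.02 with intervals that include 0 in this fit.

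The order of levels by group mean differed between the groups for Mib1, and Notch1 and Jag1 exchanged places. In WT control the order was Jag2 (15.1 ± 1.94 FPKM, SD, n = 3), Mib2, Mib1, Notch3 (4.78 ± 0.971), Dll4 (3.18 ± 0.182), Hey1 (2.93 ± 0.708), Notch1 (2.55 ± 0.536), Jag1 (2.15 ± 0.295), Dll1 (1.17 ± 0.395) and Notch2 (0.835 ± 0.127). Neighbours whose control libraries overlapped were Mib2 and Mib1, Dll4 and Hey1, Hey1 and Notch1, Notch1 and Jag1, and Dll1 and Notch2, so their order is not resolved. Mib1 held rank 3 in WT control and rank 1 in the libraries labelled skmNrip1-/-, above Jag2 at 13.5 ± 1.13 FPKM (SD, n = 2).

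The exons of 5 of these genes overlap other annotated genes: Dll1 (A930024N18Rik), Dll4 (Gm14207), Notch1 (0610009E02Rik and Gm13568), Notch2 (Gm42820) and Notch3 (Gm17276). The library kit is not described as stranded, so reads of the partners could not be told apart. TA is bulk tissue, and for every one of these genes fewer cells of a type and less RNA per cell cannot be told apart.

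Mib1 lies on chromosome 18 at 10725548 to 10818704 on the plus strand (GRCm38), with 6 annotated transcripts, 4 of them protein coding. Intron 12 of the longest transcript, which has 21 exons, holds the muscle microRNA genes Mir133a-1 and Mir1a-2 with their host transcript Mir133a-1hg on the minus strand and Mir1b on the plus strand. None of these overlaps an exon of Mib1, and the microRNAs were not analysed here. The 10 nearest genes of the table, 5 on each side and up to 1310 kb away, did not share the difference. Of the 6 that passed the filter 0 were called and 0 had an unadjusted p under 0.05 (limma), against 0.453% and 11.9% of all genes tested. Snrpd1, which encodes a core spliceosome protein, differed by -0.04 (log2) and Esco1, which encodes a cohesin acetyltransferase, by -0.09.

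Cables1 differed by 0.17, Tmem241 by -0.10 and Riok3 by -0.16. The 4 genes under the filter were Abhd3, the closest at 18.8 kb (-0.19), Gata6 (-0.26), Rbbp8 (-0.17) and Greb1l (0.58). Greb1l read 0.0366 and 0.221 FPKM in the libraries labelled skmNrip1-/- and 0.0349, 0.0587 and 0.0272 FPKM in WT control, so its value rested on 1 library.

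**Figure D3:**
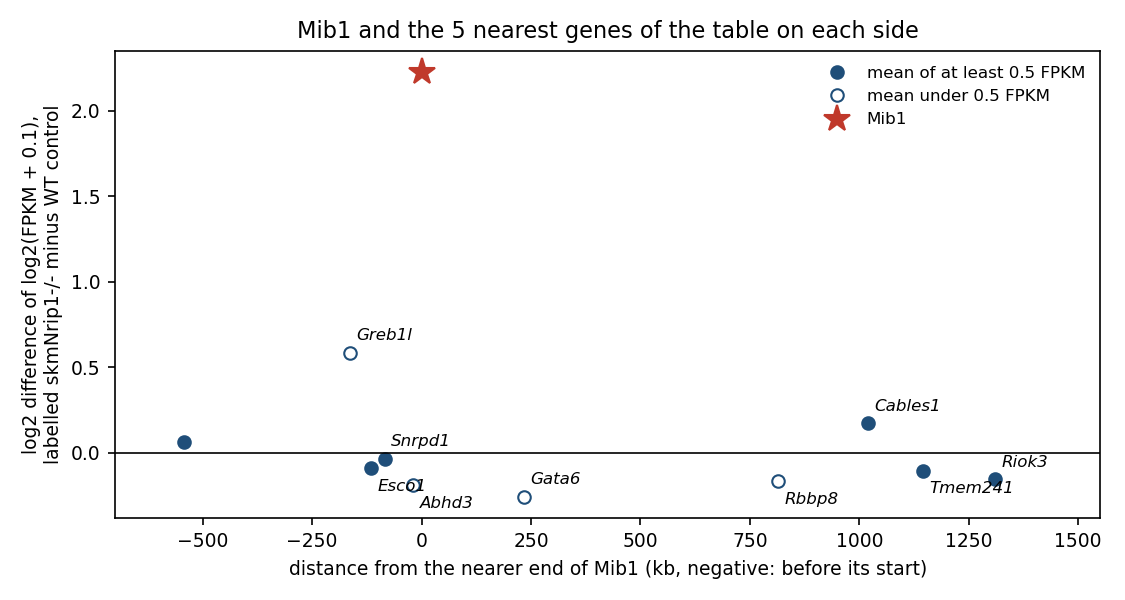
Log2 difference, libraries labelled skmNrip1-/- minus WT control, of Mib1 (star) and the 5 nearest genes of the table on each side, against distance from the nearer end of Mib1 in kb. The names of 9 neighbours are printed. Filled circles mark a mean of at least 0.5 FPKM and open circles a lower mean; Mib1 is at 2.23, the filled neighbours lie between -0.16 and 0.17 and the open circle of Greb1l is at 0.58.

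The 5 genes whose profile over the 5 libraries was closest to that of Mib1 (smallest root mean square distance on the log2 scale, each gene set to its WT control mean) belonged to other processes. They were Tmem37 (distance 0.221), Ackr3 (0.238), Fabp3 (0.273), Ptp4a1 (0.284) and Chrna4 (0.287). Fabp3, the fatty acid binding protein of heart and oxidative muscle, read 483, 533 and 461 FPKM in WT control and 1890 and 1841 FPKM in the libraries labelled skmNrip1-/-. Ackr3, a scavenging receptor for the chemokine Cxcl12, read 5.46, 5.91 and 4.74 FPKM against 19.5 and 21.6 FPKM. No gene of the Notch list was among these 5, which were picked for likeness and carry no test. That absence follows from the size of the differences, so nothing is read from it. The largest in the list was 0.71 for Hes1, at a distance of 1.005.

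The rest of the pathway was read from a list of 66 genes by role, of which 64 were in the table and 56 were tested. In limma 0 of the 56 were called, against 0.453% of all genes tested, and 3 had an unadjusted p under 0.05, against 11.9%. At a share of 0.453% a list of this length would often hold no called gene, so nothing is read from the 0. The estimates were above 0 for 27 genes and below 0 for 29, and the median was -0.0038 against -0.00054 for all genes. Both libraries labelled skmNrip1-/- lay above every control for 8 genes and below every control for 9, against the 15.8% and 14.4% of all genes given above.

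Upstream of the nucleus, Notch4, an endothelial receptor, read 5.45, 4.81 and 6.10 FPKM in WT control and 3.94 and 4.06 FPKM in the libraries labelled skmNrip1-/-, without overlap. Its difference of -0.43 ± 0.14 (SE) did not pass the threshold (adjusted p = 0.302, limma). Among 5 tested genes of ligand endocytosis, which includes the ligase family Neuralized and the adaptors Epsin, the median was -0.17, from -0.29 for Neurl3 to 0.03 for Epn2. Among 8 genes of receptor glycosylation and processing the median was -0.12, from -0.27 for the fucose-modifying enzyme Lfng to 0.14 for the sheddase Adam17, with 7 of 8 below 0. The 6 subunits of gamma-secretase had a median of -0.02, with 3 above 0 and 3 below, and the highest was Psen2 at 0.07.

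In the nucleus, 9 genes of the activation complex, which includes Rbpj, had a median of 0.03, from -0.09 for the acetyltransferase Kat2a to 0.38 for the coactivator Maml2. The 9 genes listed as corepressors had a median of 0.00091, with 5 above 0 and 4 below, and the highest was Ncor1 at 0.21. That list also holds Kyat1, an aminotransferase gene (0.08). Among 11 inhibitors and turnover factors, Dtx3l, an E3 ligase of the Deltex family, read 1.55, 2.15 and 1.21 FPKM in WT control and 2.41 and 2.60 FPKM in the other group. That was 0.62 ± 0.24 (SE; adjusted p = 0.391, limma), and at the other end Cbl, a ligase for receptor kinases, was at -0.38. The median of these 11 was 0.0017.

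**Figure D4:**
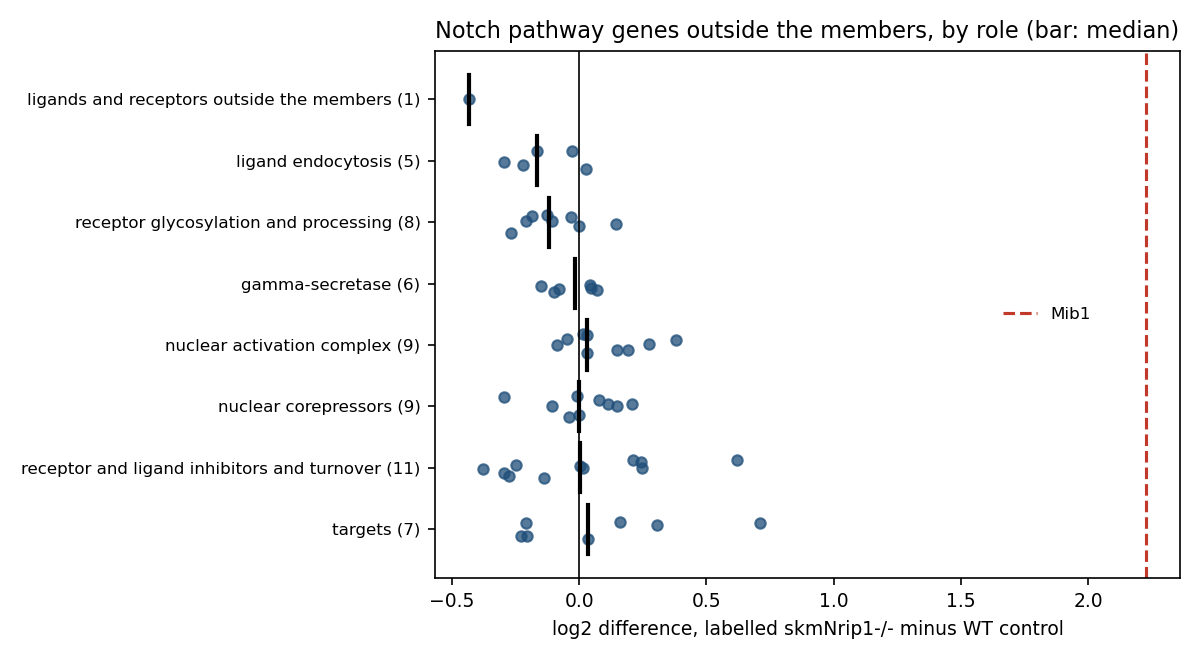
Log2 difference, libraries labelled skmNrip1-/- minus WT control, of the 56 tested Notch pathway genes outside the 10, 1 point per gene and grouped by role with the number tested in parentheses, the bar being the median. The points lie between -0.43 (Notch4) and 0.71 (Hes1), and the dashed line of Mib1 is at 2.23.

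The targets of the pathway were read separately from Hey1, and 7 of the 10 listed were tested, with a median of 0.03. Hes1, a bHLH repressor and the most widely used Notch target, read 10.5, 9.02 and 13.4 FPKM in WT control and 17.0 and 18.6 FPKM in the libraries labelled skmNrip1-/-. The groups did not overlap, and the difference was 0.71 ± 0.18 (SE; 95% interval 0.29 to 1.13), the largest of the 56 pathway genes. It did not pass the threshold over all genes (adjusted p = 0.209, limma). The other 6 tested genes of the target list lay nearer to 0: Ccnd1, which encodes cyclin D1, at 0.30, Bhlhe41 at 0.16, Nrarp at 0.03, Hes6 at -0.21, Heyl at -0.21 and Myc at -0.23. Hes1 and Hey1 had estimates of opposite sign, and neither was called.

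**Figure D5:**
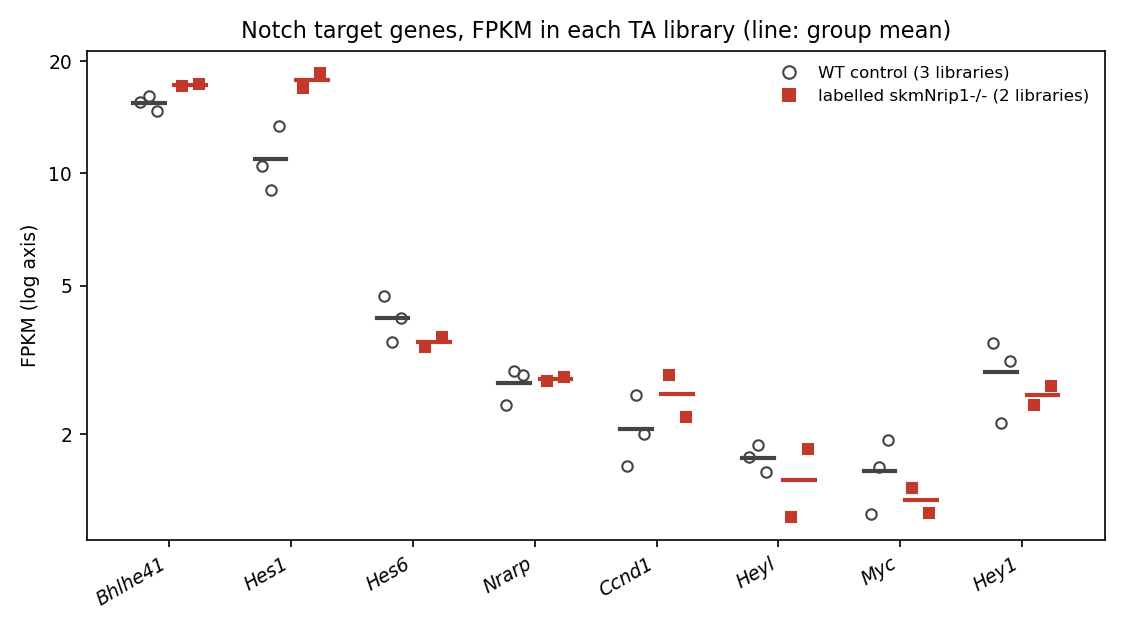
FPKM of the 7 tested genes of the Notch target list and Hey1 in each TA library, on a log axis, with open circles for WT control, squares for the libraries labelled skmNrip1-/- and lines at group means. Hes1 reads 9.02 to 13.4 FPKM in WT control and 17.0 to 18.6 FPKM in the other group, and Hey1 lies within the control range.

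RBPJ, the DNA-binding partner of the Notch intracellular domain, recognises the core TGGGAA. The core was searched on both strands in the 250 bases before the RefSeq start of each gene (GRCm38.p6) and was found in 21.6% of all 32851 promoters. Mib1, Hey1, Hes1, Heyl, Ccnd1 and Myc had no match in the promoter table and were not searched. The core was in 0 of 10 promoters of the 8 matched genes among the 10, and in 3 of 7 promoters of the 6 matched targets. Those of Hes5 and Hey2 are shown because both genes are in the table, with the core, or its reverse complement TTCCCA, in capitals. The windows are chr4:154960784-154960903 (plus strand) for Hes5 and chr10:30842914-30843033 (minus strand) for Hey2.
Hes5: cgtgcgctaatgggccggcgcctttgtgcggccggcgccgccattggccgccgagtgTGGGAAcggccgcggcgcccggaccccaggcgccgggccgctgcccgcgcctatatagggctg
Hey2: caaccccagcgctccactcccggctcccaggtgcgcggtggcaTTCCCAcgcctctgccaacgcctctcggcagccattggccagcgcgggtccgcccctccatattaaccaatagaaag
Both genes were listed at low levels. Hes5 read 0.0846, 0.0968 and 0.273 FPKM in WT control and 0.0785 and 0.110 FPKM in the libraries labelled skmNrip1-/-. Hey2 read 0.0905, 0.239 and 0.171 FPKM against 0.167 and 0.242 FPKM, so neither was tested.

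Notch ligands and receptors are carried by vessels, mural cells and satellite cells as well as fibers, and markers of these cells were read beside them. Of the 10 endothelial markers 0 were called, where 0.453% of all genes tested were, and the median was -0.12. The same share stands beside each list that follows. Pecam1 read 25.1, 26.6 and 24.9 FPKM in WT control and 23.9 and 26.0 FPKM in the libraries labelled skmNrip1-/-. The summed endothelial levels overlapped at 119.7 to 129.1 and 107.4 to 122.7 FPKM. The pericyte and smooth muscle markers summed to 213.1 to 235.1 and 214.1 to 222.6 FPKM, with 0 of 10 called and a median of -0.09. Pdgfrb (0.03) and Rgs5 (0.07) were the 2 above 0, and the other 8 were below 0. Of the satellite cell markers, 7 of 10 were tested and 0 called, with 3 above 0 and 4 below, and the sums overlapped at 28.1 to 30.5 and 27.2 to 32.1 FPKM. Pax7, under the filter and not tested, read 0.383, 0.386 and 0.384 FPKM against 0.237 and 0.314 FPKM, while Vcam1, named after its values were seen, was at 0.39 (adjusted p = 0.484, limma). Myofiber markers summed to 77610 to 106000 FPKM in WT control and 72650 to 75800 FPKM in the other group, without overlap, with 9 of 10 below 0 and Acta1, skeletal actin, at -0.40 (adjusted p = 0.517, limma). Fibro-adipogenic, macrophage, Schwann cell and adipocyte lists overlapped in their sums, with 0 called in each. The part of these shifts in the values of the 10 genes was not tested.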

How the data were processed

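RNA of TA muscle was extracted with a column kit with DNase treatment, and libraries were made with the NEBNext Ultra RNA kit. Per the labels, the submitters' processing notes name Salmon 1.10.2, DESeq2 1.44.0 and the build mm10. The table the authors deposited holds 1 FPKM value per gene and library, and how FPKM was computed and the annotation release are not given in the sources used here. The authors also deposited log2 fold changes and p-values of their own comparison, which were not used. Those columns apart, every per-sample column was assigned by its name to a library.

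The deposited FPKM were tested as log2(FPKM + 0.1) with limma 3.58.1 (R 4.3.3; lmFit and eBayes with trend, Benjamini-Hochberg adjustment), all 5 libraries in 1 fit, over the genes averaging 0.5 FPKM or more. A fold change is therefore on the log2(FPKM + 0.1) scale, which understates the change of low genes. Depth is not given, so no counting interval is printed. Of 17015 gene identifiers 16996 were found in GENCODE M21 (GRCm38), from which positions were taken; promoters came from RefSeq. The fit was tested on simulated data. The members and lists were chosen with earlier results of these data known. Named genes are the 10, Nrip1, the extremes of each role group, the 5 most like Mib1, its neighbours and the leading markers; the other target genes, Hes5 and Hey2 among them, and Rbpj were named after their values were seen. Some genes that this rule names are not reported here. Alternatives were other pseudocounts, filters, scalings, variance settings, a replicate block and leaving out each library.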

Additional observations from a re-analysis of the deposited data

How the results depend on the processing

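Mib1 was higher in the libraries labelled skmNrip1-/- under all 14 alternatives, from 1.93 with values scaled to TPM to 2.41, and 2.04 to 2.41 with 1 library left out. The 14 were not all distinct. Scaling by median of ratios left the estimates as they were, and the replicate block repeated the Mib1 estimate without WT control replicate 3. Scaling to TPM moved the median of all genes to -0.29; Mib1 lay 2.22 above it and Mib2 0.0090 above it, although Mib2 itself then read -0.28. Of the other 9 genes, 7 to 9 were below 0 in every alternative. Where each group kept at least 2 libraries, 0 of the 9 and 0 pathway genes were called, beside 22 to 88 of all genes tested. Pathway genes at an unadjusted p under 0.05 (limma) numbered 16 at TPM, 6 without WT control replicate 2 and 1 without WT control replicate 3. At TPM the pathway median was -0.30, beside -0.29 for all genes. The share of all genes at that p was not computed for these settings, so nothing is read from the counts. The adjusted p of Hes1 ran from 0.183 to 0.732 (limma), with its log2 difference between 0.41 and 0.86.

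The number of genes called depended on the setting. The 55 (45 higher, 10 lower) became 88 (29 higher, 59 lower) at TPM and 25 (22 higher, 3 lower) without the variance trend. Leaving out 1 library gave 9 to 71 genes, 6 to 55 higher and 3 to 16 lower, with 9 without skmNrip1-/- replicate 2, 16 without skmNrip1-/- replicate 1, 22 without WT control replicate 3 and 30 without WT control replicate 1; the 16 lower came without WT control replicate 2. Where 1 library was left in an arm, it is assumed to vary like the other group. The fit with the replicate number as a block, which drops WT control replicate 3 because its number occurs in 1 group, called 22 genes (18 higher, 4 lower) and gave 2.11 for Mib1, and -0.76 for Dll1 and -0.60 for Notch1 with 95% intervals below 0. Same-numbered libraries deviated with correlations of 0.065 and 0.095, and the remaining pairs ran from -0.095 to 0.03. With 2 libraries in 1 group these values mirror each other, so they cannot settle whether same-numbered libraries were paired. Scaling to TPM divides each library by the sum of its FPKM, which sets the shift seen at TPM. The sums were 1144710, 1031290 and 969144 in WT control and 1288040 and 1286250 in the libraries labelled skmNrip1-/-. The median-of-ratios factor was 1 in every library. Why the sums differed, and the causes of the other shifts, were not tested. Depth is not given, so what it limits cannot be stated beyond the intervals printed.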

Other observations

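Among the satellite cell markers, the 2 with an unadjusted p under 0.05 had estimates of opposite sign and neither passed the threshold. Cdh15, which encodes M-cadherin, read 6.13, 4.71 and 5.88 FPKM in WT control and 3.77 and 3.68 FPKM in the libraries labelled skmNrip1-/- (log2 difference -0.56 ± 0.15, SE; adjusted p = 0.241, limma). Sdc4, a cell surface heparan sulfate proteoglycan, read 6.93, 6.81 and 6.80 FPKM against 9.68 and 8.15 FPKM (0.37 ± 0.12; adjusted p = 0.303, limma). Both were named after their values were seen.

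Among the genes closest to Mib1 in profile, Chrna4, a neuronal acetylcholine receptor subunit, was the least abundant at 0.185, 0.272 and 0.146 FPKM in WT control and 1.35 and 1.96 FPKM in the libraries labelled skmNrip1-/-, a log2 difference of 2.54. Tmem37 read 10.2, 9.55 and 9.33 FPKM against 41.0 and 38.6 FPKM (2.02). Ptp4a1, a protein tyrosine phosphatase, read 21.4, 22.8 and 19.7 FPKM against 69.3 and 82.9 FPKM (1.83).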
